A study of Mus musculus with 19 samples.

Results

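A set of 10 genes that carry bile acids and other organic anions through the hepatocyte, or conjugate them, was followed across both experiments of a mouse study of fibrolamellar carcinoma, a liver cancer defined by a fusion of DNAJB1 to the catalytic subunit of protein kinase A. The genes were chosen by name and role, with earlier results of these data known. Shares over all genes are therefore set beside them only as a description. They are the uptake carriers Slc10a1, Slco1b2 and Slco1a1 and the export pumps Abcb11, Abcc2, Abcb4 and Abcc3. The others are the conjugating enzymes Slc27a5 and Baat, and the regulator Nr0b2. All 10 were among the 17606 gene identifiers measured in tumours, and 9 were among the 13549 genes measured in embryonic livers. Slco1a1 was not analysed in embryos.

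Bile acids are made from cholesterol in hepatocytes, joined to taurine or glycine, pumped across the apical membrane into the bile canaliculus, and taken back from portal blood across the basolateral (sinusoidal) membrane. Slc10a1 (NTCP) is the sodium-dependent uptake carrier for conjugated bile acids, whereas Slco1b2 and Slco1a1 are sodium-independent carriers of the OATP family that also take up bilirubin and drugs. Abcb11 (BSEP) exports bile salts into bile, Abcc2 (MRP2) exports conjugated organic anions, and Abcb4 (MDR2) moves phosphatidylcholine into bile. The nuclear receptor FXR, encoded by Nr1h4, senses bile acids and raises transcription of Abcb11 and of Nr0b2 (SHP), which in turn represses bile acid synthesis.

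The first experiment sequenced poly-A RNA of whole livers at embryonic day 18.5, from 5 embryos labelled control and 4 that expressed the fusion, here called control 1 to 5 and fusion 6 to 9 after their labels. The fusion embryos carried Rosa26 LSL-DNAJB1-PKA-GFP, a fusion cDNA with a GFP reporter behind a stop cassette, and Alb-Cre, whose recombinase is driven by the albumin promoter and acts in the liver from mid-gestation. The labels do not give the alleles that control embryos carried, and no recombined share of cells is stated. The second experiment measured tumours grown from the single mouse line FL8, set in gelatin capsules under the flank skin of NSG mice, an immunodeficient strain that lacks lymphocytes and retains macrophages and neutrophils. Once tumours averaged 75 mm3, mice were randomized to 75 mg/kg palbociclib, a drug that blocks the cell cycle kinases CDK4 and CDK6, or to vehicle, by gavage for 3 days with 4 days off, and 5 tumours of each arm were sequenced. The treatment text gives the vehicle as 0.5% methocel and the sample labels as a carrier, whereas the series text speaks of PBS and injections. No genotype is given for FL8. The labels give no litter or animal identifiers, so p-values measure the spread between these libraries.

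Embryo libraries held 7660736 to 45591301 counted reads and tumour libraries 2955729 to 43141761. Prkaca, the mouse gene of the fused kinase subunit, measured 38.2 to 47.3 CPM (reads of a gene scaled to a library total of 1000000) in controls and 50.8 to 120 in fusion embryos, without overlap. Hepatocyte markers were abundant in both experiments: 17 of 18 listed genes were analysed, and they summed to 112958 to 160926 CPM in controls and 90664 to 140554 in fusion livers. Libraries stood apart in each experiment. In embryos, ribosomal protein genes took 9.68% to 10.1% of reads in controls 1 and 2 and fusion 8 and 9, and 6.16% to 7.85% in the other 5, and these are called the high-share and low-share libraries. Prkaca was at 51.9 and 50.8 CPM in high-share fusion 8 and 9 and at 120 and 74.3 CPM in low-share fusion 6 and 7. Among fusion livers, ribosomal share and Prkaca level therefore cannot be told apart. Xist, transcribed from the inactive X of females, was at 162 to 448 CPM in controls 1 and 2 and fusion 6 to 8 and at 0.242 to 0.534 CPM in the other 4, so among controls ribosomal share and sex cannot be told apart, and fusion 9 was the 1 male of its group. Low-share controls were thus all male and low-share fusion livers all female. In every fit within low-share libraries, fusion and sex therefore cannot be told apart. Among tumours, 46.6% of vehicle 1's reads came from mitochondrial genes, against 1.24% to 6.47% elsewhere, and vehicle 5 was the shallowest.

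Upstream sequences are shown for the pair of genes with a match to the FXR element in the 150 bases before the start site. The element is an inverted repeat of AGGTCA spaced by 1 base. The pair was picked out after the Nr1h4 values and the matches to several motifs were seen. A part of FXR in the levels of these genes was not tested. RefSeq promoter windows (250 bases before to 50 after the start, GRCm38.p6) were matched for 7 of the 10 genes, not Abcc3, Baat or Slc27a5. Slco1b2 lies on the plus strand, with the window at chr6:141629368-141629517, and Abcb11 on the minus strand, at chr2:69342617-69342766. Both are printed 5′ to 3′ in the gene's direction, with matches to AGGTCANTGACCT at no more than 2 mismatches in capitals.
Slco1b2: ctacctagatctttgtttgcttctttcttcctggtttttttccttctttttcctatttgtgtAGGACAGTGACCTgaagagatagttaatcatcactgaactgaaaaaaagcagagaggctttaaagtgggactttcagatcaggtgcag
Abcb11: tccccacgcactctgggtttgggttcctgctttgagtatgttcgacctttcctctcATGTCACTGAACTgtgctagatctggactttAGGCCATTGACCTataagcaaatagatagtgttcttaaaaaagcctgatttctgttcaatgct
The Slco1b2 match began 88 bases before the start and had 1 mismatch. Abcb11 held 2 matches, 1 with 2 mismatches at 94 bases and 1 with 1 mismatch at 63 bases before the start. Such a match, read on either strand, occurred in 1.14% of 32851 promoter windows, and an exact one in 0.00913%. Of the 7 genes with windows, 2 held a match with up to 2 mismatches, Slco1b2 and Abcb11, and Nr0b2 held none. Abcb11 and Nr0b2 did not pass the embryo test described below. The half-site AGGTCA stood in 5 of the 8 windows of the 7 genes (Slc10a1 has 2), against 16.3% of all, and TGACG, the half-site of cAMP response elements, in 0 of 8, against 20.8% of all. Abcc2 held GTTAACTATTAAG, 75 bases before its start, a match with 2 mismatches to the inverted repeat GTTAATNATTAAC bound by HNF1 (1.36% of windows). A match describes these letters and was not tested as a binding site.

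In livers that expressed the fusion Slco1b2 was 7.06-fold lower than in controls, Abcc2 and Baat were lower by less, and none of the 9 genes rose past the threshold of edgeR's test. By edgeR's quasi-likelihood test across 13316 genes at a Benjamini-Hochberg adjusted p under 0.05, 3 of the 9 genes were lower and 0 higher, whereas 12.8% of all genes tested passed, 6.81% downwards and 5.99% upwards. By fold change alone 8 of the 9 were negative, against 51.7% of all genes, and the median log2 fold change was -0.30, against -0.01 over all genes. The 17 hepatocyte markers tested, none of them among the 9, had 14 negative fold changes and the same median of -0.30. With sex as a covariate 6 of the 9 were negative. The groups did not overlap for 2 of the 9, both lower, where 16.5% of all genes had groups apart, 8.15% with the fusion lower and 8.37% with it higher. Other fits called other shares of all genes: 9.64% with sex and 32.6% with ribosomal share as a covariate, 20% within high-share and 21.8% within low-share libraries, 17.7% by limma-voom with quality weights and 18.4% by DESeq2. In whole-liver RNA, fewer cells of a type and less RNA per cell cannot be told apart.

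**Figure D1:**
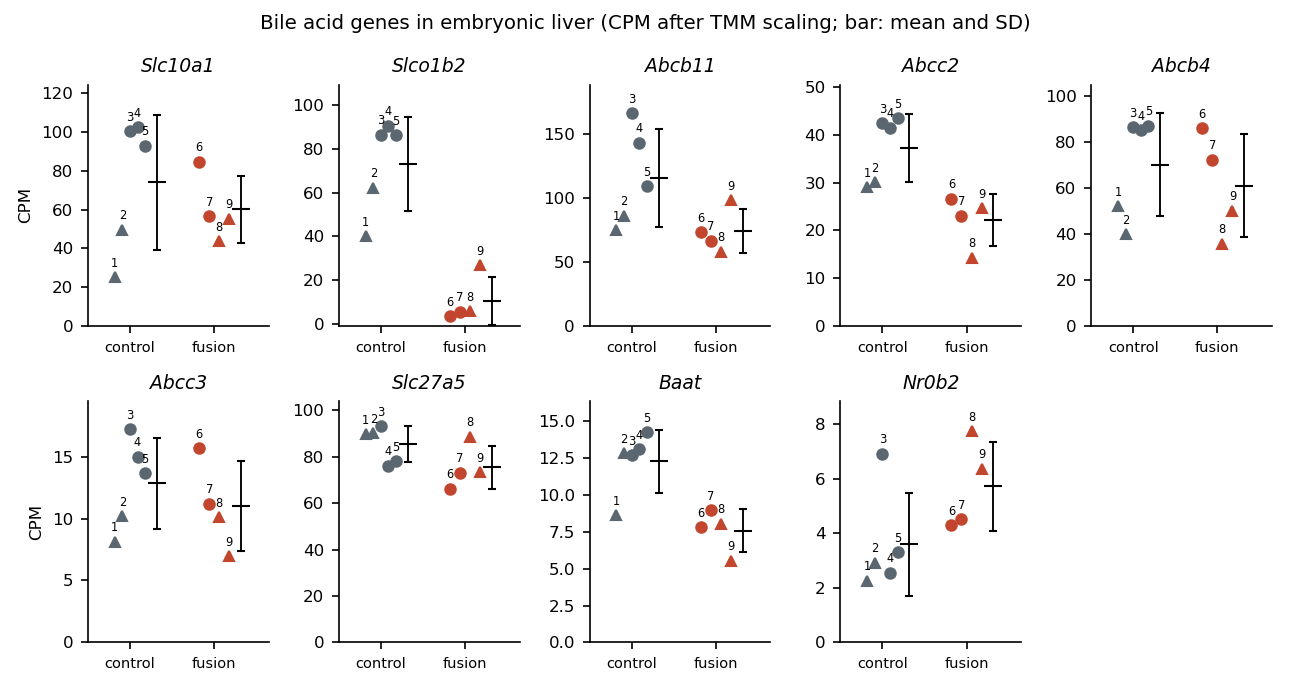
Normalised level (CPM after TMM scaling) of 9 bile acid transport and conjugation genes in 5 control and 4 fusion livers; numbers are library labels, triangles have ribosomal protein shares over 8%, circles under 8%, and bars give mean and SD. Slco1b2 lies at 40.2 to 90.4 CPM in controls and 3.63 to 26.9 in fusion livers, while Slc10a1 overlaps between groups.

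Of the uptake carriers, Slco1b2 fell and Slc10a1 did not pass the test. Slco1b2 (ENSMUSG00000030236, chr6:141629518-141686646, plus strand) stood at 40.2, 62.2, 86.4, 90.4 and 86.1 CPM (TMM-scaled, as are all embryo levels that follow) in controls 1 to 5, and at 3.63, 5.70, 6.05 and 26.9 CPM in fusion 6 to 9. Every fusion liver lay under every control, with fusion 9 closest to the control range. Controls averaged 73.1 ± 21.5 CPM (SD, n = 5) and fusion livers 10.6 ± 10.9 (SD, n = 4). On the log2 scale the fold change was -2.82 ± 0.54 (SE) and had an adjusted p of 0.00737 by edgeR's quasi-likelihood test. The gene passed in all 8 alternative fits (other size factors, DESeq2, limma-voom, no filter, either covariate and within each side of the ribosomal share) and in 9 of 9 fits that each left out 1 library. Without fusion 9 the log2 fold change was -3.86 and without fusion 6 -2.50. It was -4.30 among low-share and -1.60 among high-share libraries, a difference that was not tested. The low-share value sets male controls against female fusion livers. As a plain difference of group means of log2 CPM, Slco1b2 differed by -3.18. Relative to the mean log2 level of 17 hepatocyte markers, that difference was -2.99.

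Slc10a1 (ENSMUSG00000021135, chr12:80953183-80968705, minus strand), the principal carrier of conjugated bile acids, overlapped between the groups. Its levels were 25.0, 49.6, 100, 102 and 92.8 CPM in controls 1 to 5 and 84.6, 56.6, 43.5 and 55.4 CPM in fusion 6 to 9. All 4 fusion livers fell inside the control range, whose low end was held by high-share controls 1 and 2. Its log2 fold change was -0.30 ± 0.36 (SE), with an adjusted p of 0.617 by edgeR's quasi-likelihood test. The sign turned to 0.18 with sex as a covariate and to 0.45 among high-share libraries. Among low-share libraries it was -0.48 (edgeR, adjusted p of 0.0631). Levels there were 92.8 to 102 CPM in 3 controls, all male, and 56.6 to 84.6 CPM in 2 fusion livers, both female. The group means of log2 CPM of Slc10a1 differed by -0.16, and by 0.02 relative to the hepatocyte markers.

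Because both carriers were counted in the same libraries, their reads can be set against each other. Slc10a1 reads per Slco1b2 read were 0.622, 0.798, 1.16, 1.13 and 1.08 in controls 1 to 5 and 23.3, 9.94, 7.19 and 2.06 in fusion 6 to 9. The balance thus lay near equality in controls and towards Slc10a1 in each fusion liver, least so in fusion 9. In the plot of Slco1b2 against Slc10a1 and Cyp7a1, fusion 9 is also the fusion liver closest to controls in Cyp7a1, at 13.9 CPM against 2.49 to 4.37 in the other 3.

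**Figure D2:**
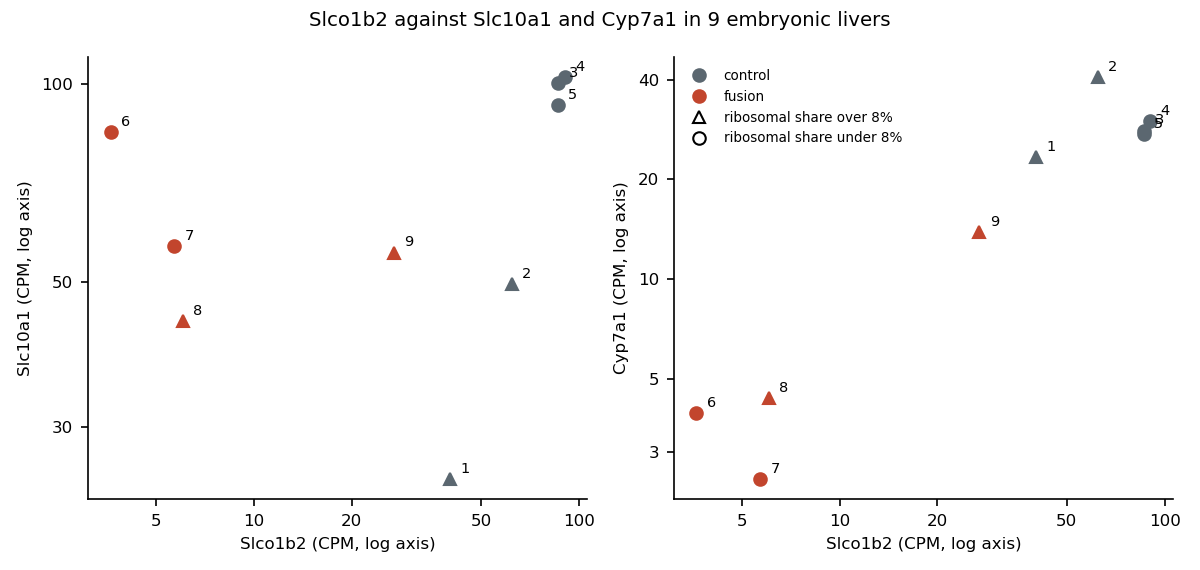
Slco1b2 level (x, CPM, log axis) against Slc10a1 (left) and Cyp7a1 (right; y, CPM, log axes) in 9 embryonic livers, with library numbers, fusion livers in red and triangles for ribosomal protein shares over 8%. Fusion 6 combines 3.63 CPM of Slco1b2 with 84.6 CPM of Slc10a1, and Cyp7a1 falls from 23.4 to 40.7 CPM in controls to 2.49 to 13.9 in fusion livers.

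Of the canalicular pumps, only Abcc2 passed the test over all 9 libraries. Abcc2 (ENSMUSG00000025194, chr19:43782192-43840740, plus strand) measured 29.0, 30.1, 42.4, 41.5 and 43.5 CPM in controls 1 to 5 and 26.6, 23.1, 14.3 and 24.6 CPM in fusion 6 to 9. The groups did not overlap, though fusion 6 lay just under control 1. Controls averaged 37.3 ± 7.11 CPM (SD, n = 5) and fusion livers 22.2 ± 5.46 (SD, n = 4), 1.68-fold less. For Abcc2 the log2 fold change, -0.75 ± 0.19 (SE), had an adjusted p of 0.0282 by edgeR's quasi-likelihood test. The call depended on the libraries kept: by the same edgeR test the adjusted p was 0.0827, 0.0549 or 0.0681 without control 3, 4 or 5, 0.0660 or 0.0580 without fusion 7 or 8, 0.0703 with sex as a covariate and 0.0873 among high-share libraries, with log2 fold changes of -0.76 to -0.58. The other 6 alternative fits called Abcc2, among them edgeR with ribosomal share as a covariate (0.00175) and among low-share libraries (0.00137), DESeq2 (0.00479) and limma-voom (0.00275). The group means of log2 CPM of Abcc2 differed by -0.77, and by -0.58 relative to the hepatocyte markers.

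Abcb11 (ENSMUSG00000027048, chr2:69238282-69342616, minus strand), the bile salt pump, was at 75.1, 86.3, 166, 143 and 109 CPM in controls 1 to 5 and 73.4, 66.6, 58.2 and 98.5 CPM in fusion 6 to 9. Fusion 9 lay above controls 1 and 2, and the other 3 fusion livers under all controls. The log2 fold change was -0.65 ± 0.24 (SE), with an adjusted p of 0.102 by edgeR's quasi-likelihood test. It passed with limma-voom and quality weights (adjusted p of 0.0191), with ribosomal share as a covariate in edgeR (0.0497) and among low-share libraries (0.00382), where the log2 fold change was -0.995, against -0.03 among high-share ones. Exons of Gm13613 and Gm13614 overlap Abcb11 on the opposite strand, and strand use in counting is not given in the sources used here.

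Abcb4 (ENSMUSG00000042476, chr5:8893717-8959231, plus strand), the phospholipid floppase, divided by ribosomal share within both groups. Levels in controls 1 to 5 were 52.0, 39.9, 86.4, 85.0 and 87.1 CPM, and in fusion 6 to 9 they were 85.8, 72.2, 35.7 and 50.2 CPM. The high-share libraries of both groups, at 35.7 to 52.0 CPM, lay under every low-share library. At -0.20 ± 0.29 (SE), the log2 fold change did not pass (edgeR's quasi-likelihood test, adjusted p of 0.683), and it turned to 0.0315 with sex as a covariate. Of its 75-base words, 1.30% also occur in other genes, Abcb1a and Abcb1b among them.

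Abcc3 (MRP3; ENSMUSG00000020865, chr11:94343295-94392997, minus strand), which exports conjugates across the basolateral membrane, measured 8.14, 10.2, 17.2, 15.0 and 13.7 CPM in controls 1 to 5 and 15.7, 11.2, 10.1 and 6.98 CPM in fusion 6 to 9. The groups overlapped across nearly their whole range. The log2 fold change was -0.22 ± 0.26 (SE), with an adjusted p of 0.612 by edgeR's quasi-likelihood test. Against this pump, Abcc2 gave 2.46 to 3.56 reads per Abcc3 read in controls and 1.70, 2.06, 1.41 and 3.53 in fusion 6 to 9, so fusion 9 lay among controls and the other 3 under them.

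Of the conjugating enzymes, Baat fell and Slc27a5 did not pass the test. Baat (ENSMUSG00000039653, chr4:49489422-49506557, minus strand), which joins activated bile acids to taurine or glycine, stood at 8.62, 12.8, 12.7, 13.1 and 14.3 CPM in controls 1 to 5 and 7.82, 8.96, 8.05 and 5.54 CPM in fusion 6 to 9. Control 1 fell inside the fusion range, and the other 4 controls above it. Controls averaged 12.3 ± 2.15 CPM (SD, n = 5) and fusion livers 7.59 ± 1.45 (SD, n = 4). For Baat the log2 fold change, -0.69 ± 0.18 (SE), had an adjusted p of 0.0290 by edgeR's quasi-likelihood test. By that edgeR test the adjusted p of Baat lay between 0.0559 and 0.0802 without any 1 of controls 2 to 5 and at 0.0621, 0.0623 and 0.0616 without fusion 6, 8 and 9. It was 0.0689 with sex as a covariate and 0.117 among high-share libraries, with log2 fold changes of -0.69 and -0.61. The other 6 alternative fits called Baat.

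Slc27a5 (ENSMUSG00000030382, chr7:12988346-12998192, minus strand), the ligase that activates bile acids before Baat acts, had the smallest SE of the 9 genes. It measured 89.6, 90.2, 93.2, 76.2 and 77.98 CPM in controls 1 to 5 and 66.2, 73.2, 88.7 and 73.4 CPM in fusion 6 to 9. Fusion 8 lay among the controls and the other 3 under them. The log2 fold change was -0.18 ± 0.12 (SE), with an adjusted p of 0.350 by edgeR's quasi-likelihood test.

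Nr0b2 (ENSMUSG00000037583, chr4:133553376-133556536, plus strand) was the one gene with a positive fold change. Its levels were 2.26, 2.93, 6.91, 2.55 and 3.32 CPM in controls 1 to 5 and 4.30, 4.51, 7.74 and 6.36 CPM in fusion 6 to 9, from 21 to 206 reads per library. Fusion livers lay above 4 of the 5 controls, with control 3 inside their range. The log2 fold change was 0.64 ± 0.33 (SE), with an adjusted p of 0.220 by edgeR's quasi-likelihood test. Without control 3 it was 1.05 (edgeR, adjusted p of 0.0305). It was 1.497 among high-share (edgeR, adjusted p of 0.00716) and 0.05 among low-share libraries, a difference that was not tested.

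**Figure D3:**
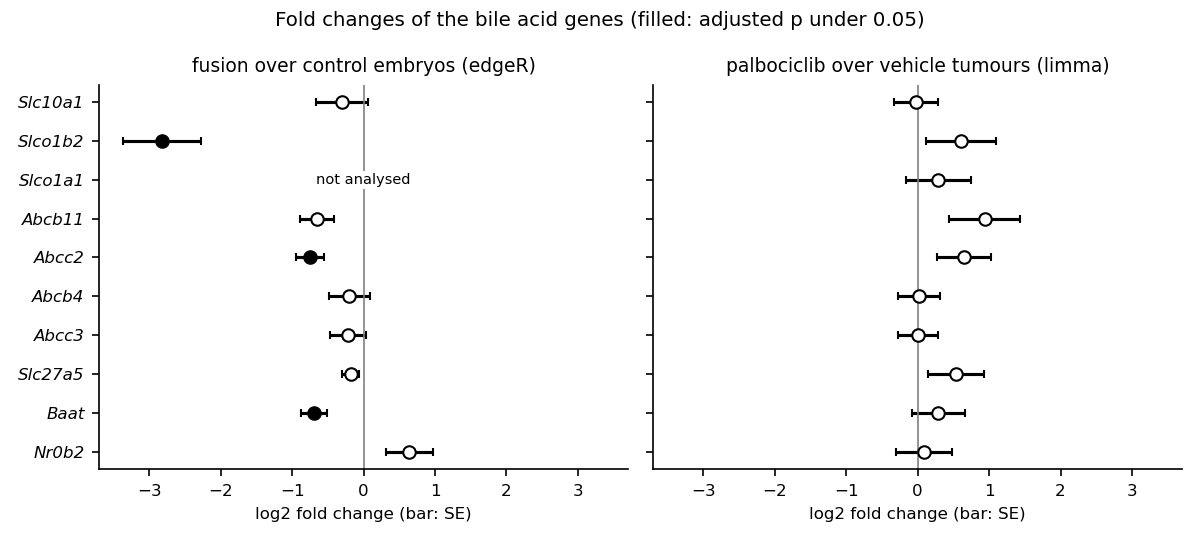
Log2 fold changes with SE of the transport and conjugation genes, fusion over control livers by edgeR (left) and palbociclib over vehicle tumours by limma (right); filled points have an adjusted p under 0.05. Slco1b2, Abcc2 and Baat are filled on the left at -2.82, -0.75 and -0.69, and no point is filled on the right.

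Levels of different genes were compared per kilobase of exon. In controls Slc27a5 led with 35.05 CPM per kb, followed by Slc10a1 (33.7), Abcb11 (22.6), Slco1b2 (14.8), Abcb4 (7.47), Baat (6.34), Abcc2 (4.37), Nr0b2 (3.17) and Abcc3 (2.25). Slc27a5 exceeded Slc10a1 in 2 of 5 controls, so the first pair could not be ordered, whereas Abcb11 exceeded Slco1b2 in 5 of 5. In fusion livers Slco1b2 stood next to last, at 2.14 CPM per kb, between Abcc2 (2.60) and Abcc3 (1.93), and exceeded Abcc3 in 1 of 4 livers. The 3 highest there were Slc27a5 at 30.9, Slc10a1 at 27.3 and Abcb11 at 14.4 CPM per kb.

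After group means were taken off, 25 of the 36 pairs of genes varied together across the 9 livers with a positive Pearson r, and the median r was 0.31. The highest was between the canalicular pumps Abcc2 and Abcb4 (r = 0.88) and the lowest between Abcc2 and Slc27a5 (r = -0.79). Slc10a1 and Slco1b2 gave r = 0.26. These correlations describe 9 libraries that share their scaling and the split by ribosomal share, and carry no test. A further comparison left group means in, so differences between control and fusion livers enter its r values. Among all genes tested, Decr2, Crispld2 and Hdac5, picked for their high r, tracked the mean standardized level of the 9 genes most closely (each r = 0.97 over the 9 libraries). Their log2 fold changes were -1.05, -0.26 and -0.66.

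Of 16 listed genes of bile acid synthesis, 8 fell in fusion livers, 0 rose and 8 did not pass, 3 of these with positive fold changes. The median log2 fold change was -0.72. Over all genes tested, 6.81% were called lower and 5.99% higher. Cyp7a1, which begins the classical pathway and sets its rate, measured 23.4, 40.7, 28.1, 30.04 and 27.4 CPM in controls 1 to 5 and 3.94, 2.49, 4.37 and 13.9 CPM in fusion 6 to 9. The groups did not overlap, and the log2 fold change was -2.30 ± 0.42 (SE; edgeR's quasi-likelihood test, adjusted p of 0.00564), or -3.04 without fusion 9 and -3.07 within low-share libraries. Cyp8b1, which directs synthesis to cholic acid, averaged 118 ± 14.4 CPM in the 5 controls and 40.1 ± 5.53 in the 4 fusion livers (± SD), a log2 fold change of -1.56 (adjusted p of 8.32e-05 by the same edgeR test). Ephx1, a microsomal epoxide hydrolase also described as a bile acid binding protein, fell from 36.3 ± 4.75 to 11.7 ± 2.40 CPM (log2 fold change of -1.64).

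Other genes of synthesis were picked out after their values were seen. Cyp27a1, Cyp39a1, Hsd3b7, Akr1c6 and Acox2 were the other called genes, with log2 fold changes of -1.47, -0.90, -0.75, -2.98 and -0.53. Cyp2c70, which makes the muricholic acids of mice, was at 206 to 260 CPM in controls and at 4.65, 7.65, 10.6 and 133 CPM in fusion 6 to 9. Its groups did not overlap, and its adjusted p of 0.0708 over all libraries became 6.06e-06 without fusion 9 (edgeR's quasi-likelihood test). Without any 1 other library it was 0.101 to 0.161, and among high-share libraries 0.133 (edgeR). Other size factors and no filter also missed (edgeR, 0.0718 and 0.0724). Cyp2c70 passed with sex or ribosomal share as a covariate (edgeR, 0.0277 and 0.00620), among low-share libraries (edgeR, 1.54e-06), by DESeq2 (0.0372) and by limma-voom (0.00132). The list had 8 to 10 lower genes under DESeq2, limma-voom, either covariate, or without fusion 9, and 2 higher ones with ribosomal share as a covariate.

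**Figure D4:**
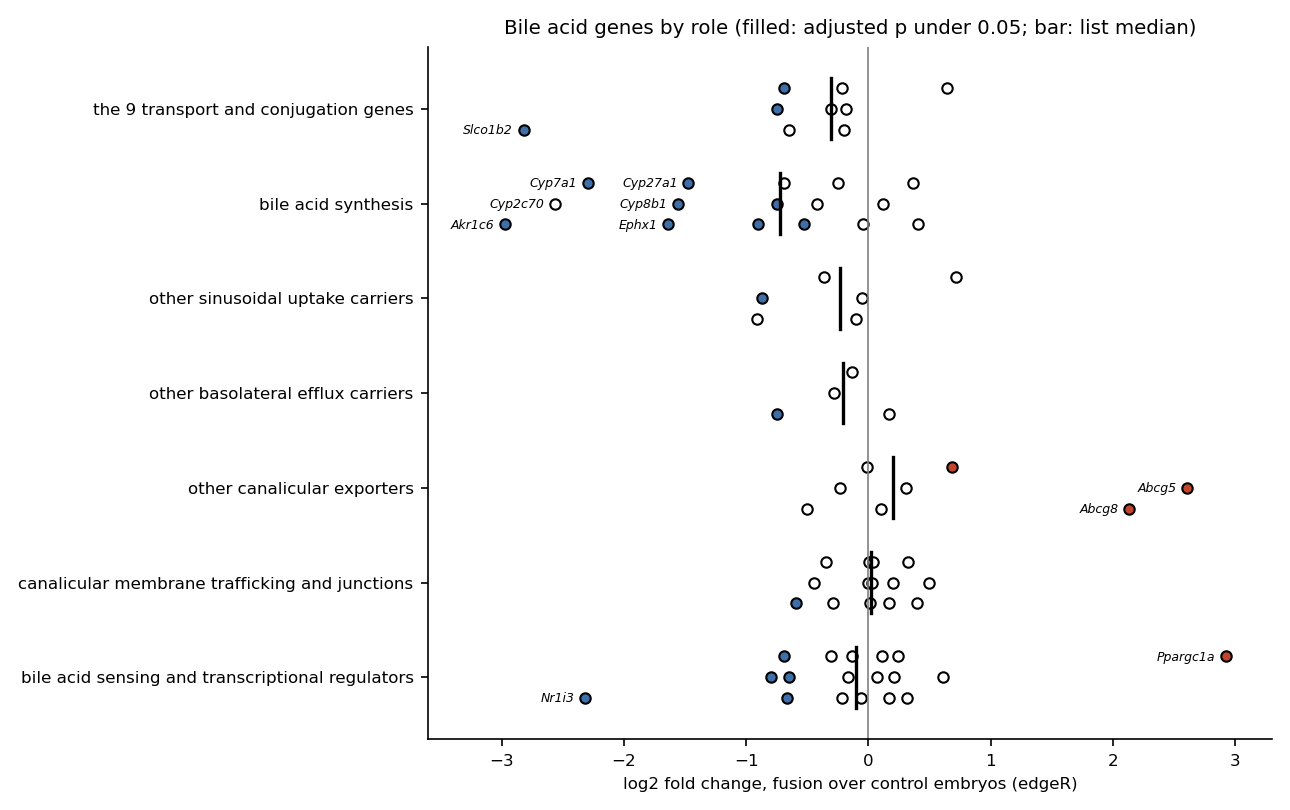
Log2 fold change, fusion over control livers, of each gene tested in the described set and in 6 lists of bile acid genes by role; filled points have an adjusted p under 0.05 by edgeR and bars mark list medians. Synthesis genes reach a median of -0.72, and Abcg5, Abcg8 and Ppargc1a stand apart on the right at 2.61, 2.13 and 2.92.

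Other transporters were listed by membrane, and their calls stand beside 6.81% of all genes called lower and 5.99% called higher. Of 6 other sinusoidal uptake carriers tested, 1 fell and 0 rose, with a median log2 fold change of -0.23. The urate and organic anion carrier Slc17a3 fell from 30.3 ± 2.03 to 16.6 ± 1.17 CPM (SD, n = 5 and n = 4; log2 fold change of -0.87, edgeR's adjusted p of 0.000562). Slc17a1 had a log2 fold change of 0.71 and the organic anion carrier Slco2b1 one of -0.91, and neither passed (edgeR, adjusted p of 0.145 and 0.233). Slco2b1, at 0.230 to 1.79 CPM, passed within low-share libraries (log2 fold change of -1.33; edgeR, adjusted p of 0.0141) and had a log2 fold change of -0.13 with sex as a covariate. Of 4 other basolateral efflux carriers, Abcc6 fell from 56.7 ± 12.5 to 33.8 ± 10.5 CPM at the threshold itself (edgeR, adjusted p of 0.04996), and missed it with sex as a covariate (0.137), without filtering (0.0557), with DESeq2's size factors (0.0502), without any 1 of controls 2 to 5 (0.0545 to 0.131) and without fusion 6, 8 or 9 (0.0592, 0.115 and 0.105), with log2 fold changes of -0.84 to -0.58 against -0.75. Abcc6 passed in the other 5 alternatives: with ribosomal share as a covariate (0.000409), within high-share and low-share libraries (0.0137 and 0.00613), by DESeq2 (0.0161) and by limma-voom (0.0127). Abcc4 and Abcc5 had log2 fold changes of 0.17 and -0.28 and did not pass.

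The other canalicular exporters held the genes that rose. Of 8 tested, 3 rose and 0 fell, against 5.99% of all genes called higher and 6.81% lower. The median log2 fold change was 0.20. Abcg5 and Abcg8, whose proteins pair to pump cholesterol and plant sterols into bile, measured 1.85 to 2.56 and 1.52 to 2.56 CPM in controls. In fusion 6 to 9 Abcg5 reached 19.9, 15.4, 13.3 and 5.41 CPM and Abcg8 13.7, 10.6, 8.43 and 4.11 CPM. All fusion livers lay above all controls for both genes, fusion 9 least so, and the log2 fold changes were 2.61 ± 0.31 and 2.13 ± 0.31 (SE; edgeR's quasi-likelihood test, adjusted p of 0.000562 and 0.00180). Within high-share libraries these were 1.93 and 1.30. The subunit Tmem30a of lipid flippases rose from 97.0 ± 10.7 to 156 ± 21.4 CPM (log2 fold change of 0.69). These 3 calls were also made by DESeq2, by limma-voom, with either covariate and without fusion 9. Abcg5 and Abcg8 are neighbouring genes on opposite strands with overlapping spans.

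Genes of canalicular trafficking and junctions gave 1 lower and 0 higher of 14 tested, with a median log2 fold change of 0.02. Of all genes, 6.81% were called lower, so 1 of 14 is near that share. The motor Myo5b, which delivers pumps to the apical membrane, went from 13.3 ± 2.79 to 8.88 ± 0.976 CPM (log2 fold change of -0.59; edgeR's adjusted p of 0.0430). Myo5b missed the threshold with sex as a covariate (0.0903), among high-share libraries (0.443), and without control 1, 3, 4 or 5 or fusion 6, 7 or 8 (0.0657 to 0.119). Pdzk1 and Rdx, which scaffold and anchor apical pumps, had log2 fold changes of -0.29 and 0.50 and did not pass over all libraries (edgeR, adjusted p of 0.109 and 0.0698). With ribosomal share as a covariate both passed (edgeR, 0.0370 and 0.00297). Rdx also passed by DESeq2 (0.0320) and within high-share and low-share libraries (edgeR, 0.0356 and 0.0195).

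Among 18 regulators tested, 5 fell and 1 rose, with a median log2 fold change of -0.10. Shares called over all genes were 6.81% lower and 5.99% higher. The bile acid receptor Nr1h4 measured 31.6, 29.1, 43.7, 41.1 and 46.2 CPM in controls 1 to 5 and 26.6, 24.4, 23.1 and 22.9 CPM in fusion 6 to 9. The groups did not overlap, and the log2 fold change was -0.66 ± 0.15 (SE; edgeR's quasi-likelihood test, adjusted p of 0.0152). Nr1h4 missed the threshold among high-share libraries (0.0792) and without control 3 (0.0517). Nr1i3 (CAR), a receptor that raises Abcc2 and Abcc3 transcription, fell from 15.2 ± 6.43 to 3.12 ± 1.35 CPM (log2 fold change of -2.32; edgeR's adjusted p of 0.00216), with fusion 9 highest of its group at 5.13 CPM and log2 fold changes of -1.37 and -2.96 within high-share and low-share libraries. The coactivator Ppargc1a rose from 8.19 ± 0.999 to 61.7 ± 16.3 CPM (log2 fold change of 2.92; edgeR's adjusted p of 8.45e-06). Foxa2, Mafg and Cebpa, picked out after their values were seen, were the other regulators called lower, at -0.80, -0.69 and -0.65.

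Marker lists of the cells that a whole liver holds were read beside these genes. Of all 13316 genes tested, edgeR called 12.8%, and 3897 had an unadjusted p under 0.05. Hepatocyte markers gave 2 genes lower and 2 higher of 17 tested (9 at an unadjusted p under 0.05), 14 fold changes were negative with a median of -0.30 on the log2 scale, and their mean log2 level was 10.85 ± 0.21 (SD, n = 5) in controls and 10.66 ± 0.09 (SD, n = 4) in fusion livers. Cps1 (means of 589 and 1064 CPM) and Ass1 (0.610 and 2.15 CPM) were higher, and Cebpa (200 and 128 CPM) was among the lower. Levels given relative to this list thus rest on a reference that itself differed between the groups. Of 9 cholangiocyte and progenitor markers tested, 3 fell, namely Krt19 (7.20 to 3.82 CPM), Krt7 (7.45 to 3.78 CPM) and Epcam (4.88 to 1.77 CPM), while the list's sum was 455 to 633 CPM in controls and 631 to 753 in fusion livers. Most of that sum was Krt8 (means of 196 and 250.8 CPM) and Krt18 (275 and 395 CPM), keratins that hepatocytes also express, named after their values were seen; neither passed (edgeR, adjusted p of 0.150 and 0.0518). Fibroblast and stellate markers summed to 468 to 629 CPM in controls and 366 to 457 in fusion livers, without overlap, and 3 of 9 (Reln, Col1a1 and Col1a2) fell. Macrophage and Kupffer markers summed to 1156 to 1488 and 999 to 1193 CPM, haematopoietic ones to 4001 to 6727 and 4325 to 5507 CPM, and endothelial ones to 200 to 222 and 192 to 286 CPM, with 0 of 10, 0 of 11 and 0 of 8 called by edgeR's quasi-likelihood test (2, 3 and 1 at an unadjusted p under 0.05). Skeletal muscle genes summed to 6.07 to 10.4 CPM in controls and 7.66 to 10.9 in fusion livers, and 1 skin and fat gene was measured, at 0.558 to 1.56 and 0.536 to 1.23 CPM. The 11 haematopoietic genes, of 15 listed, include no globin gene. No listed marker that was measured stood at 0 in all libraries of an embryo group. The part of other cell types in the results above was not tested.

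In FL8 tumours all 10 genes were expressed, and palbociclib changed none past the threshold. Limma on log2(CPM + 1) of the deposited values called 0% of 12829 genes at an adjusted p under 0.05, and 0 of the 10 genes. At an unadjusted p under 0.05 it passed 586 genes (4.57%) and 0 of the 10. On recovered reads edgeR called 0 genes and DESeq2 8, none of the 10. Fold changes were positive for 9 of 10 genes, against 68.8% of all, and their median was 0.29, against 0.14 over all genes. Of 17 hepatocyte markers 16 were positive, with a median of 0.41. TMM scaling brought the median of all genes to -0.00 and left 6 of the 10 genes positive, with a median of 0.20, and without vehicle 1 it was 5 of 10, with a median of 0.00. The groups overlapped for all 10 genes, where 0.935% of all genes had groups apart.

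**Figure D5:**
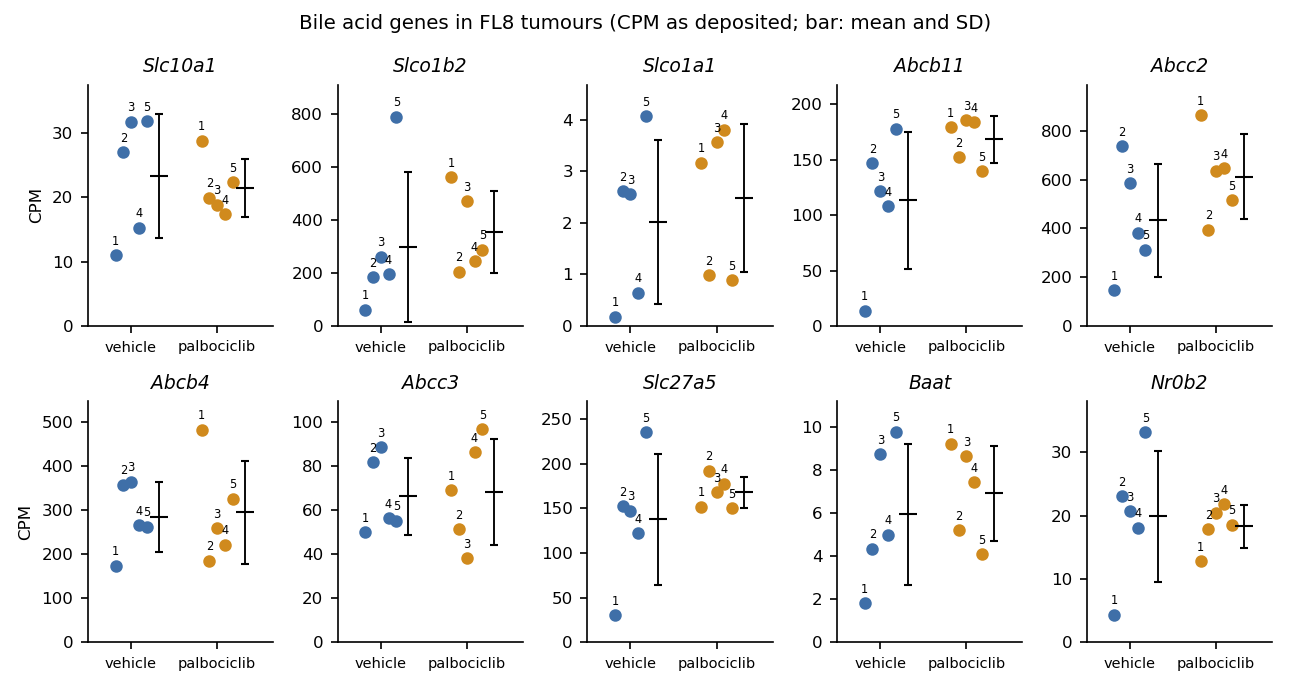
Level (CPM as deposited) of the 10 genes in 5 vehicle and 5 palbociclib tumours, with tumour numbers and bars for mean and SD. Vehicle 1 is lowest of its group for every gene, and vehicle 5 reaches 788 CPM of Slco1b2.

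Abcb11 had the largest fold change of the 10, and 1 library set its size. It measured 13.8, 147, 122, 108 and 178 CPM in vehicle 1 to 5 and 180, 153, 186, 184 and 140 CPM in palbociclib 1 to 5. Vehicle 1 lay apart from the other 9 tumours, and vehicle 5 inside the palbociclib range. Its log2 fold change was 0.94, with a 95% confidence interval of -0.11 to 1.98 and an adjusted p of 0.953 by limma, and 0.30 without vehicle 1. With mitochondrial reads taken out of the total, vehicle 1 stood at 25.9 CPM of Abcb11.

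Vehicle 1 was low in the other carriers as well. Abcc2 was at 147, 736, 585, 382 and 313 CPM in vehicle 1 to 5 and 865, 395, 636, 647 and 516 CPM in palbociclib 1 to 5 (log2 fold change of 0.65, interval -0.13 to 1.43), and at 0.31 without vehicle 1. Slco1b2 was at 60.3, 184, 260, 195 and 788 CPM and at 559, 204, 471, 243 and 286 CPM (0.61, interval -0.43 to 1.65), and at 0.16 without vehicle 1 or 1.08 without vehicle 5. Vehicle 5, the highest of all 10 tumours for Slco1b2, had the fewest reads in total. Slc27a5 was at 30.7, 153, 147, 122 and 235 CPM and at 152, 192, 168, 177 and 150 CPM (0.53, interval -0.30 to 1.37), and at 0.07 without vehicle 1. For each of these genes the palbociclib tumours lay within the range of the vehicle tumours or overlapped it, and the limma intervals include 0.

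The remaining 6 genes had log2 fold changes of -0.03 to 0.29. Slc10a1 was at 10.96, 27.0, 31.8, 15.3 and 31.8 CPM in vehicle 1 to 5 and 28.8, 19.96, 18.9, 17.4 and 22.3 CPM in palbociclib 1 to 5 (log2 fold change of -0.03, interval -0.68 to 0.62). Abcc3 spanned 49.9 to 88.4 CPM in vehicle and 38.1 to 96.5 in palbociclib tumours (0.00), and Abcb4 174 to 364 and 185 to 482 CPM (0.02). Both of these turned negative under TMM scaling, at -0.16 and -0.14. Nr0b2 spanned 4.34 to 33.2 CPM in vehicle and 12.8 to 21.7 in palbociclib tumours, with a fold change of 0.09 that was -0.05 under TMM scaling and -0.35 without vehicle 1. Baat spanned 1.83 to 9.81 and 4.103 to 9.24 CPM (0.29, interval -0.50 to 1.09). Slco1a1 (ENSMUSG00000041698, chr6:141907282-141946962, minus strand), an OATP carrier known for male-biased expression in adult liver, spanned 0.177 to 4.06 and 0.885 to 3.801 CPM (0.29, interval -0.67 to 1.25), from 6 to 164 reads. Of its 75-base words 1.09% occur in relatives such as Slco1a4.

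In vehicle tumours the order per kilobase put Slco1b2 first at 60.3 CPM per kb, then Slc27a5 (56.4), Abcc2 (50.7), Abcb4 (30.3), Abcb11 (22.1), Nr0b2 (17.5), Abcc3 (11.6), Slc10a1 (10.6), Baat (3.07) and Slco1a1 (0.381). Slco1b2 exceeded Slc27a5 in 1 of 5 vehicle tumours, and Slc27a5 exceeded Abcc2 in 2 of 5, so the leading 3 did not differ beyond their spread. Each gene from Slc10a1 on exceeded the next in 5 of 5. After palbociclib the leading genes were Abcc2 (71.7), Slco1b2 (71.6) and Slc27a5 (68.8). The tumour and embryo tables were normalized separately, so only ratios within a library are set side by side: Slc10a1 gave 0.0401 to 0.182 reads per Slco1b2 read in tumours, under all 9 livers, and Abcc2 gave 1.76 to 10.7 reads per Abcb11 read, against 0.245 to 0.397 in livers. Such ratios are free of the library total only. Reads of the experiments were aligned with different tools, and the part of read counting in these differences was not tested.

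After group means were taken off, 44 of 45 pairs of the 10 genes had a positive Pearson r and the median was 0.69, with 10 libraries and vehicle 1, whose mitochondrial share was 46.6%, low throughout. Abcb11 and Slc27a5 had the highest r, 0.97, and Abcc3 and Slco1b2 the lowest, -0.02. No other gene pairs were set beside these, and they carry no test.

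None of the 6 lists of related genes held a call in tumours by limma (0 of 68 tested, 1 at an unadjusted p under 0.05). That gene was Cyp2c70, which averaged 134 ± 77.8 CPM with vehicle and 229 ± 37.9 with palbociclib (± SD over 5 tumours each; log2 fold change of 1.13, limma's adjusted p of 0.953). Other genes with the smallest p-values in their lists were Amacr (0.57), Slc17a4 (1.01), Slco2b1 (0.83), Abcc1 (-0.38), Abcc6 (0.42), Atp7b (0.65), Atp8b1 (0.54), Pdzk1 (0.46), Stx3 (0.47), Klb (0.71) and Rxra (0.44), the values being log2 fold changes. Slco2b1 spanned 0 to 20.8 CPM with vehicle and 4.17 to 7.13 with palbociclib, with means of 5.51 and 5.68, and its sign turned on recovered reads, to -0.58 by edgeR and -0.59 by DESeq2. List medians lay between 0.14 for basolateral efflux and 0.46 for canalicular exporters, against 0.14 over all genes. Of the markers, hepatocyte genes summed to 45763 CPM in vehicle 1 and up to 130890 in vehicle 4, and to 97094 to 144168 CPM in palbociclib tumours. Macrophage and Kupffer genes summed to 70.7 to 1476 CPM in vehicle tumours, highest in vehicle 1, and 74.6 to 179 after palbociclib. Haematopoietic genes summed to 1349 to 96726 CPM, highest in vehicle 3, and 1785 to 8509 after palbociclib, where 1 of 14 was at 0 in all 5 tumours. These sums include globin genes, which were not analysed in embryos, so they cannot be set beside the embryo sums. Cholangiocyte and progenitor genes summed to 1228 to 5418 and 2454 to 4706 CPM, endothelial ones to 70.6 to 196 and 60.2 to 92.4, fibroblast and stellate ones to 157 to 342 and 208 to 360, skeletal muscle ones to 5.75 to 34.2 and 2.96 to 24.5, and skin and fat ones to 14.7 to 33.8 and 7.56 to 50.4 CPM. The part of these cells in the tumour values was not tested.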

How the data were processed

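Embryo values were the deposited raw counts per gene, made by the authors with STAR 2.5.1b, per the submitters' processing notes, which also name DESeq2. Tumour values were the deposited CPM, one file per tumour, from cutadapt 2.10, HISAT2, featureCounts and DESeq2 in R 4.1.2, per the same notes. Both used mm10. The order of these steps, the filters and strand use are not given in the sources used here. The embryo file also held 9 columns of normalized values, which were not used.

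Embryo counts were tested with edgeR 4.0.16 (TMM factors, filterByExpr, quasi-likelihood test, R 4.3.3) and tumours with limma 3.58.1 (trend, log2(CPM + 1), a minimum mean of 1 CPM). P-values were adjusted by Benjamini-Hochberg over all genes tested, with a threshold of 0.05. The tests were also run on simulated counts with a fixed spread and large changes in well-counted genes. That run does not measure their power for small changes or at the spread of these libraries. Within a tolerance of 0.001, 100% of CPM values were whole multiples of a single read, so reads were recovered for edgeR and DESeq2 1.42.0 as alternatives. Exon lengths and positions came from GENCODE M21 (GRCm38), and 17469 of 17606 tumour identifiers had a symbol. Promoter windows came from RefSeq. Replicates of a group differed by more than sampling noise (chi-square per degree of freedom of 13.1 or more).

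The genes and all lists were chosen with earlier results of these data known. Named were the 10 genes and, from each list, at most the 3 smallest embryo p-values and the 2 smallest tumour p-values; others are marked in the text as picked out after their values were seen. Alternatives covered scaling, filters, pseudocounts, covariates, tools and leaving out each library. Some listed markers were not analysed here, and a carrier left out of its list is not reported here.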

Additional observations from a re-analysis of the deposited data

Results flagged for a closer look

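Single libraries distant from their group were sought for each gene in each group of 4 or 5. Of 38 groups screened 4 held one, where chance alone gives about 1 in 20, or 1.9. Slco1b2 in fusion 9 stood at 26.9 CPM, against 3.63 to 6.05 CPM in the other 3 fusion livers. Slco1b2 in vehicle 5 stood at 788 CPM, against 60.3 to 260 CPM in the other 4 vehicle tumours. Baat in control 1 stood at 8.62 CPM, under the 12.7 to 14.3 CPM of the other controls. Nr0b2 in control 3 stood at 6.91 CPM, above the 2.26 to 3.32 CPM of the other controls.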

How the results depend on the processing

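The counts of called genes depended on the embryo libraries: 4345 genes were called with ribosomal share as a covariate, 2589 and 2950 within the high-share and low-share libraries, and 969 to 1581 when 1 library was left out, against 1704 (969, 1107 and 987 without control 3, fusion 7 and fusion 8). Of the 9 genes, 1 was called with sex as a covariate and 1 to 3 when 1 library was left out, against 3 (1 without control 4, control 5 or fusion 8). Directions turned for Slc10a1 (0.18 with sex as a covariate, 0.45 within high-share libraries) and Abcb4 (0.0315 with sex as a covariate). In tumours, under TMM scaling, without mitochondrial reads, and in edgeR and DESeq2 on recovered reads, Abcc3 was at -0.16, -0.14, -0.11 and -0.13, Abcb4 at -0.14, -0.13, -0.0908 and -0.11, and Nr0b2 at -0.0487, -0.0333, -0.15 and -0.16. Slco2b1 turned to -0.58 and -0.59 in edgeR and DESeq2 on recovered reads. Leaving out 1 tumour gave ranges of -0.26 to 0.11 for Slc10a1, -0.14 to 0.19 for Abcc3, -0.18 to 0.16 for Abcb4, -0.00135 to 0.52 for Slco1a1 and -0.35 to 0.32 for Nr0b2. DESeq2 called 8 tumour genes and edgeR 0. The cause of these shifts was not tested. With the tumour number as a replicate block limma called 0 genes, and 460 passed at an unadjusted p under 0.05 against 586. Same-numbered tumours had correlations of -0.32 to 0.00223, and differently numbered ones of -0.21 to 0.27. These values show no pairing by number and cannot exclude one. No promoter match of 9 or more letters was exact. Depth limits Nr0b2 in embryos and Slco1a1 in tumours, which had 21 and 6 reads at the fewest. List counts under other fits were chosen after seeing the data.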
